A study of Mus musculus with 6 samples.

Results

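The genes of oxidative phosphorylation were compared between DOCK8-deficient and wild type natural killer T (NKT) cells. Genes were taken by annotated symbol, namely the Nduf subunit families of complex I, the Sdh genes of complex II, the Uqcr genes and Cyc1 of complex III, the Cox genes from families 4 to 8 of complex IV, the Atp5 genes of complex V, and Cycs. A gene was kept when a probe had a detection p under 0.05 on 3 or more of the 6 arrays, and its probe of highest mean was used. Of 93 such genes with a named probe 82 were kept, out of 9060 genes tested on the array. All 82 were detected on all 6 arrays, so none entered through 1 group alone. They comprised 33 genes of complex I, 3 of complex II, 7 of complex III, 10 of complex IV and 16 of complex V. The others were cytochrome c, 11 assembly factors whose symbols share a prefix, and the pseudogene Ndufs5-ps. Ndufa4, named as a complex I gene, was counted with complex IV, where its protein is now placed. Cox7a2l, classed as a factor of supercomplexes (joined complexes) and not as a subunit, was counted there too.

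The cells were mature thymic NKT cells, positive for CD44 and NK1.1, on a C57BL/6 background. The deficient group came from the Captain Morgan strain, which the labels describe as lacking DOCK8, an activator of the small GTPase CDC42, and the other group was wild type. Each group held 3 biological replicates with 1 Illumina mouse array each. The labels give no age, sex or treatment, and leave unsaid if each replicate came from an individual mouse or from pooled mice. The p-values below thus cover the spread among these 6 samples, which may be partly technical.

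Oxidative phosphorylation is the process by which mitochondria turn the electrons of NADH and succinate into ATP. Complex I takes electrons from NADH and complex II from succinate, complex III passes them on to the mobile carrier cytochrome c, and complex IV hands them to oxygen. The proton gradient built along the way drives complex V, the ATP synthase. Most subunits are encoded in the nucleus and a smaller set in mitochondrial DNA, and lymphocytes rely on the pathway when resting and enlarge it when they are activated and divide.

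On each array between 36.4% and 40.7% of 45281 probes were detected, and the median signal lay between 183 and 235. Dock8 did not separate the groups: its brightest probe read 9.52, 9.42 and 9.46 on the log2 scale on the DOCK8-deficient arrays 1 to 3 and 9.45, 9.29 and 9.69 on the wild type arrays, a difference of -0.01 (95% interval -0.33 to 0.32). A dimmer Dock8 probe read 6.02, 6.72 and 6.21 on the deficient arrays and 6.01, 5.74 and 6.08 on the wild type arrays. Another, detected on 5 arrays, read 5.38, 6.67 and 6.02 against 5.42, 5.77 and 5.65. The groups overlapped in both. The grouping therefore rests on the labels. The 7 NKT cell markers checked, among them Cd44, Klrb1c (the NK1.1 gene), Zbtb16 and Tbx21, were detected on every array.

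Oxidative phosphorylation genes mostly read slightly higher in the DOCK8-deficient cells, and 0 of 82 passed the test over all genes (limma, Benjamini-Hochberg adjusted p under 0.05), against 0.364% of all genes tested. The log2 difference, DOCK8-deficient minus wild type, was above 0 for 64 of the 82, or 78%, whereas 49% of all genes were on that side, and the difference of these shares was not tested. Their median difference was 0.12 with an interquartile range from 0.02 to 0.20, and the median over all genes was -0.0049. With arrays scaled to a common median in place of quantile normalization, 56 were above 0 and the median was 0.056, where the median over all genes was -0.076. No gene of the family may be counted as a replicate of another, since all share the same 6 samples. In RNA from a whole sorted population, fewer cells of a type and less RNA per cell cannot be told apart.

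At an unadjusted p under 0.05, 5 members were higher (6.1%, against 5.68% of all genes) and 1 was lower (1.22%, against 5.66%). In the reported fit the share on the higher side was near the background. That count was 12 without background correction, 1 with median scaling and 2 without DOCK8-deficient replicate 3 or without wild type replicate 1. It was from 5 to 7 when 1 of the other arrays was left out. The share of all genes at that p was not counted in these settings. Genes called over the array after adjustment numbered 66 higher and 58 lower without background correction. They numbered 23 and 39 with median scaling, against 19 and 14 in the reported fit. The values of both groups did not overlap for 14 members on the higher side (17.1%, against 8.61% of all genes) and 3 on the lower side (3.66%, against 8.5%). These genes varied less between replicates than the array as a whole, with a median within-group SD of 0.119 on the log2 scale against 0.194 for all genes. Of the 82, 60 lay in the upper quartile of tested genes by mean signal. There the median SD was 0.133, 49.9% of genes read higher and the median difference was -3.6e-05. In that quartile the groups did not overlap for 233 of 2265 genes on the higher side and for 220 on the lower side. The 95% interval of the difference lay within 1.5-fold either way for 70 of 82 members (85.4%, against 57.6% of all genes). That share was not counted within the upper quartile.

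**Figure D1:**
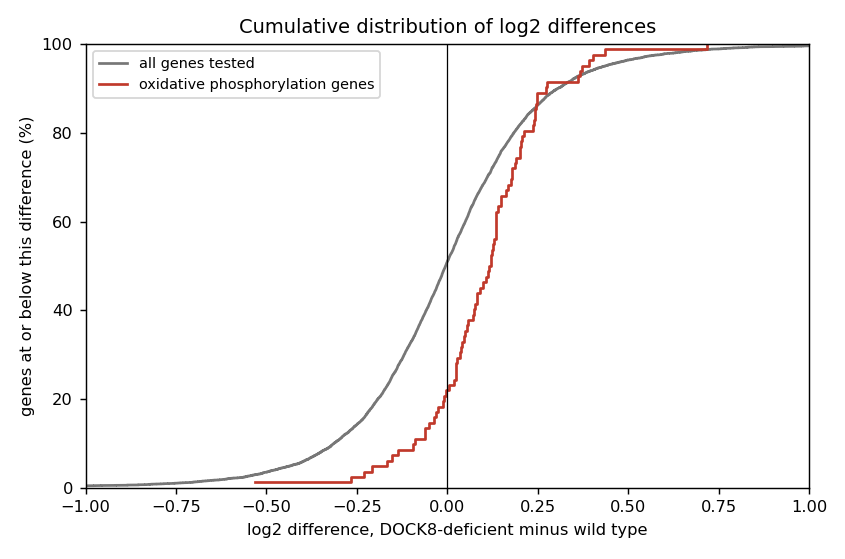
Cumulative share of genes (%, vertical axis) at or below each log2 difference, DOCK8-deficient minus wild type (horizontal axis), for the 82 oxidative phosphorylation genes and all 9060 genes tested. The curve of the members lies to the right of the other over most of its length, with medians of 0.12 and -0.0049, and is steeper.

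**Figure D2:**
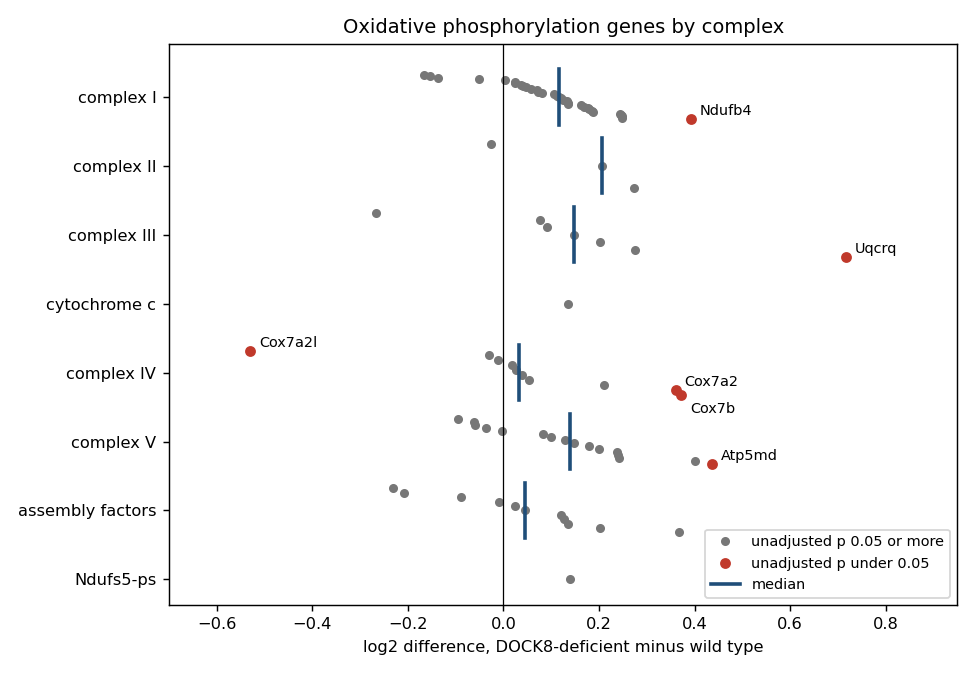
Log2 difference, DOCK8-deficient minus wild type, of each of the 82 genes, grouped by complex, with 1 point per gene and a bar at the median of groups of 3 or more. The named points have an unadjusted p under 0.05, and none passed after adjustment over all genes.

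Among complex I genes, 29 of 33 read higher, with a median log2 difference of 0.12 and a range from -0.17 to 0.39. All 5 measured core subunit genes, whose products belong to the arm that takes electrons from NADH to the quinone, were on the higher side, from 0.04 for Ndufs7 to 0.25 for Ndufv1, the NADH-binding flavoprotein (95% interval -0.08 to 0.57, adjusted p = 0.577). Of the 28 accessory subunits, which surround the core, 24 were higher, with a median of 0.11. No complex I gene passed over all genes, where the lowest adjusted p was 0.31.

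Ndufb4, an accessory subunit of the membrane arm, had that lowest value. It read 8.54, 8.67 and 8.71 on the log2 scale on DOCK8-deficient arrays 1 to 3 and 8.24, 8.39 and 8.11 on wild type arrays 1 to 3. All 3 deficient values exceeded the wild type ones, with a log2 difference of 0.39 ± 0.13 SE, or 1.31-fold. The accessory subunits Ndufa9 (0.19) and Ndufa12 (0.18) also showed no overlap between groups, with adjusted p of 0.609 and 0.658. Ndufa12 read 10.61 on DOCK8-deficient array 1, while its other 5 values lay between 10.24 and 10.39. Other members included Ndufb7 at 0.25 (adjusted p = 0.599), Ndufa13, which is also known as GRIM-19, at 0.16, and Ndufab1, the mitochondrial acyl carrier protein, at 0.12. Without wild type replicate 1 Ndufb7 differed by 0.13, and Ndufa13 differed by 0.09 without DOCK8-deficient replicate 2 and by 0.08 without wild type replicate 3. The 4 members that read lower were Ndufa10 (-0.17), Ndufb11 (-0.15), Ndufa6 (-0.14) and Ndufa2 (-0.05). Their groups overlapped in each case.

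Complex II, succinate dehydrogenase, which also belongs to the citric acid cycle, was represented by 3 of its 4 subunits. The iron-sulfur subunit gene Sdhb read 10.51, 10.39 and 10.35 in the deficient cells and 10.05, 10.08 and 10.31 in wild type cells. Its groups did not overlap, but wild type array 3 came close to the lowest deficient value, and the difference was 0.27 ± 0.13 SE (adjusted p = 0.487). A second bright Sdhb probe differed by only 0.04 and a dim one by 0.53 (adjusted p = 0.954 and 0.272 over all detected named probes). The membrane anchor genes Sdhd and Sdhc differed by 0.21 and -0.03.

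The largest difference of all members was that of Uqcrq, a small accessory subunit of complex III. It read 10.23, 10.36 and 10.44 on the deficient arrays and 9.54, 9.69 and 9.63 on the wild type arrays. The gap between groups was wider than the spread within either, at 0.72 ± 0.12 SE on the log2 scale, or 1.64-fold (95% interval 0.43 to 1.001), and yet the adjusted p over all genes was 0.0665. Uqcrq ranked 56 by p among the 9060 genes. It passed without background correction (0.60, adjusted p = 0.00487), in the deposited log2 table (0.70, 0.016), under a trended robust prior (adjusted p = 0.00231) and when every probe had to be detected at p under 0.01 on all 6 arrays (0.0274). It did not pass with median scaling (0.66, adjusted p = 0.797), with the replicate number as a block (0.211), with the mean of probes (0.0554) or with any 1 array left out (0.0968 to 0.258). Another Uqcrq probe was detected on no array and so gives no second reading.

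The other complex III members lay closer to 0. Uqcrh, the acidic hinge protein that helps cytochrome c dock, read 13.33, 13.10 and 13.31 in deficient cells and 13.53, 13.60 and 13.41 in wild type cells. All deficient values were below the wild type ones, by 0.27 on average (-0.27 ± 0.13 SE, adjusted p = 0.491). Uqcrc2, a core protein of the matrix side, differed in the other direction by 0.28 ± 0.13 SE (adjusted p = 0.471), also without overlap, and its partner Uqcrc1 by 0.08. Cyc1, the cytochrome c1 gene, read from 10.53 to 10.64 in deficient and from 10.42 to 10.47 in wild type cells (0.15 ± 0.11 SE, adjusted p = 0.689). Of the 7 members 6 were higher, with a median of 0.15. Cycs, the gene for cytochrome c itself, which also triggers caspase activation when it leaves mitochondria, differed by 0.13 (95% interval -0.13 to 0.40, adjusted p = 0.728).

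Among complex IV genes 7 of 10 were higher, with a median of 0.03. The median was -0.0055 without wild type replicate 1, 0.097 without DOCK8-deficient replicate 3, where that of complex I was 0.090, and 0.0045 with median scaling. Its members also covered the range from the lowest value of all 82 genes to 0.37. That lowest value was Cox7a2l, and the 9 other genes ran from -0.03 to 0.37. Cox7a2l, whose product is called SCAF1, was classed here as a factor of supercomplexes, which were not measured. It read 11.998, 11.61 and 11.72 in deficient cells and 12.42, 12.18 and 12.31 in wild type cells. Every deficient value lay below every wild type value, with a difference of -0.53 ± 0.15 SE, or 1.44-fold lower (95% interval -0.87 to -0.19), and it did not pass over all genes (adjusted p = 0.217). It passed without background correction (-0.51, adjusted p = 0.0403) and with a trended robust prior (0.0204). It did not pass with median scaling (-0.57, adjusted p = 1), with the replicate number as a block (0.316), with the mean of probes (0.207) or with any 1 array left out (0.137 to 0.539).

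Cox7a2, the widely expressed form of subunit 7a and a relative of Cox7a2l, read in the opposite direction. Its values were 8.89, 8.86 and 8.76 in deficient cells and 8.43, 8.51 and 8.49 in wild type cells, without overlap (0.36 ± 0.12 SE, adjusted p = 0.281). Cox7b, another small membrane subunit, read 9.10, 9.24 and 9.27 against 8.76, 8.94 and 8.79 (0.37 ± 0.12 SE, adjusted p = 0.31). The remaining widely expressed subunits, Cox4i1, Cox5a, Cox5b, Cox6a1, Cox6b1, Cox6c and Ndufa4, differed by between -0.03 and 0.21, and the groups overlapped in all of them. Cox4i1, whose product binds ATP and helps set the rate of the enzyme, differed by -0.01 (95% interval -0.42 to 0.40).

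**Figure D3:**
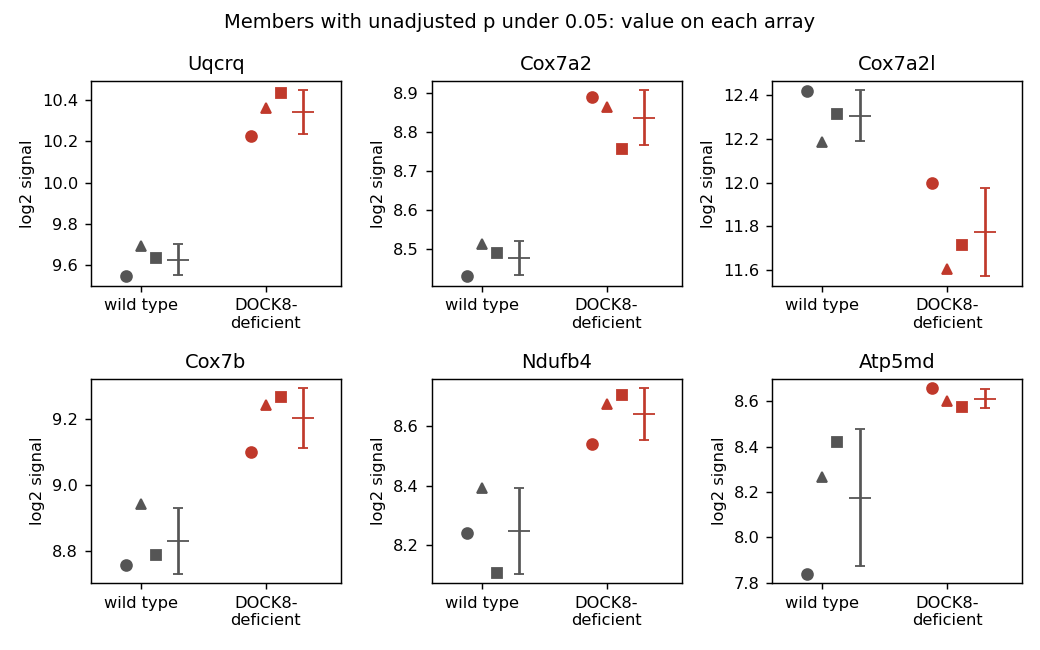
Log2 signal (vertical axes, each on its own scale) of the 6 members with an unadjusted p under 0.05 on each array. Circles, triangles and squares mark replicates 1, 2 and 3, and the horizontal mark with its bar gives the mean ± SD of 3 arrays. Groups do not overlap in any panel, and Cox7a2l is the member that reads lower in DOCK8-deficient cells.

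For complex V, 11 of 16 members were higher, with a median of 0.14 and a range from -0.10 to 0.44. Atp5md, a small membrane subunit also called DAPIT, read 8.66, 8.60 and 8.58 in deficient cells and 7.84, 8.27 and 8.42 in wild type cells. The groups did not overlap, although the wild type values spread widely (SD 0.302 against 0.0425), and the difference was 0.44 ± 0.17 SE (adjusted p = 0.386). Without wild type replicate 1, its lowest array, Atp5md differed by 0.27. Atp5g3, a gene of the rotating c ring, read from 14.00 to 14.13 in deficient and from 13.76 to 13.87 in wild type cells (0.24, adjusted p = 0.492). Atp5o, the stalk subunit that confers oligomycin sensitivity, differed by 0.24 and Atp5j2, a membrane subunit, by 0.10, both without overlap (adjusted p = 0.511 and 0.804). The membrane subunit gene Atp5k differed by 0.40 with overlapping groups (adjusted p = 0.58), by 0.13 without background correction, by 0.22 without wild type replicate 1 and by 0.66 without wild type replicate 2. The catalytic beta subunit gene Atp5b and the central stalk gene Atp5c1 differed by 0.08 and -0.004, and the other c ring gene, Atp5g2, by -0.10.

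Among the 11 assembly factors taken in by their symbols, which help build the complexes without staying in them, 7 were higher, with a median of 0.05. Sdhaf4, which acts on the flavin-bearing subunit of complex II, was lower without overlap, from 9.26 to 9.37 against 9.43 to 9.64 (-0.23 ± 0.12 SE, adjusted p = 0.535). Ndufaf5 read 0.37 higher with overlapping groups (adjusted p = 0.539), Sdhaf1 0.20, Ndufaf3 -0.21 and Ndufaf4 0.02. Ndufaf5 read 0.22 without wild type replicate 3 or without background correction, and Ndufaf3 read -0.09 without DOCK8-deficient replicate 1, -0.12 without wild type replicate 2 and -0.08 without background correction. With assembly factors and the pseudogene left out, 56 of the 70 other members, Cycs and Cox7a2l among them, were higher and the median was 0.12.

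Of the 11 genes not kept, 7 were isoforms known from particular tissues, such as muscle, testis or lung (Cox4i2, Cox6a2, Cox6b2, Cox7a1, Cox7b2, Cox8b and Cox8c). Each was detected on at most 1 of the 6 arrays. Sdha, Ndufs1 and Uqcrfs1, which encode catalytic subunits found in every respiring cell, and Ndufaf6 were detected on no array. These genes therefore have no reading here.

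More than 1 detected probe was available for 29 members, which gave 38 further readings. Among them, 9 differed in the opposite direction from the probe used, and 3 had an unadjusted p under 0.05 in limma. Of these, Atp5k (0.53) and Sdhb (0.53) read higher and Atp5mpl (-0.41) read lower. The share of all probes at that p was not counted, and of all genes 5.68% were higher and 5.66% lower at it. After adjustment 0 of the further readings passed over the 14559 detected named probes, of which 0.213% passed. Uqcrq, Cox7a2, Cox7a2l, Cox7b, Ndufb4 and Atp5md had no other detected named probe. Whether probes also bind pseudogene transcripts of these families was not analysed here.

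Promoter windows, from 250 bases before to 50 after a gene's start in RefSeq (GRCm38.p6), were matched by gene identifier for 71 of the 82 members. Letters of known regulators of respiratory genes were searched on both strands, with overlaps between motifs allowed. The letters bound by NRF1, GCGCA and GCGC separated by any 1 base, stood in 19 of 71 members' windows (26.8%), against 5.19% of all 27025 genes with a window. AAGATGGC, the letters of YY1, stood in 11 (15.5%, against 3.19%), the ETS letters CCGGAAGT in 4 (5.63%, against 4.31%), and the GC box GGGCGG in 38 (53.5%, against 38.2%). The 27025 genes include genes not detected in these cells, unlike the members, and the shares among the genes tested were not counted. Members with the NRF1 letters had a median log2 difference of 0.04, with 12 of 19 higher, and the other members with a window 0.12. The medians with and without the letters were 0.098 and 0.12 for YY1, with 10 of 11 higher, 0.037 and 0.12 for ETS, with 2 of 4 higher, and 0.12 and 0.098 for the GC box, with 28 of 38 higher. None of these differences was tested. The windows below belong to genes without overlap between groups, Cox7a2 and Cox7a2l as relatives that read in opposite directions, Ndufb4 as the complex I member of lowest p and Uqcrh as the lower complex III member. Capitals mark matches to any of these letters on either strand.
Cox7a2, chr9:79759804-79760103, minus strand: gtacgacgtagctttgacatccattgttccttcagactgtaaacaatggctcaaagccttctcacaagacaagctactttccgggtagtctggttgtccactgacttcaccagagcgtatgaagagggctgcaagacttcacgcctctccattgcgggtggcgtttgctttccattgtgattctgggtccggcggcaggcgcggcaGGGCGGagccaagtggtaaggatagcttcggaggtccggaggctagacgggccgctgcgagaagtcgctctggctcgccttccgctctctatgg
Cox7a2l, chr17:83514284-83514583, minus strand: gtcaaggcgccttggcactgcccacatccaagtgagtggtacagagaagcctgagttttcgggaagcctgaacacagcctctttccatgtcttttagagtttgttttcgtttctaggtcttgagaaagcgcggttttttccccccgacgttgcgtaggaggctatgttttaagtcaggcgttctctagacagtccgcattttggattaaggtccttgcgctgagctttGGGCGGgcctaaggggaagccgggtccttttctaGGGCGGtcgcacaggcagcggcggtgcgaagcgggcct
Ndufb4, chr16:37654319-37654618, minus strand: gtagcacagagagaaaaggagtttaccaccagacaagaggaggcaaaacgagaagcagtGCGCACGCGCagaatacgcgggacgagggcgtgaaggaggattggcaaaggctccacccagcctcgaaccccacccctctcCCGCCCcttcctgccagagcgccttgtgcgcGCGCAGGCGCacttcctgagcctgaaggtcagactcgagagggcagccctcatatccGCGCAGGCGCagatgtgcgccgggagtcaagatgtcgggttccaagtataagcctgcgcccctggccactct
Uqcrh, chr4:116075021-116075320, minus strand: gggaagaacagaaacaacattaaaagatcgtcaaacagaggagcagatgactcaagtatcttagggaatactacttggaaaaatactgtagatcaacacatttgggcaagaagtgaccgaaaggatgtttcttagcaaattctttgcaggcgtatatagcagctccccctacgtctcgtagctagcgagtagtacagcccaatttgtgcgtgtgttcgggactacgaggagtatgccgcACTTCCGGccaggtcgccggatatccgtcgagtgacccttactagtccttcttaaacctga
Ndufb4 held 3 matches to the NRF1 letters and 1 GC box. Neither Cox7a2, with 1 GC box, nor Cox7a2l, with 2, held NRF1, YY1 or ETS letters. Uqcrh held 1 ETS match. A match is a string of letters in the window and was not tested as a binding site.

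The subunits encoded in mitochondrial DNA, a list added after the values were seen, were followed too. Of 8 genes measured, 2 were higher and the median log2 difference was -0.04, with 0 called in limma and 0 at an unadjusted p under 0.05 (lowest adjusted p = 0.659). CYTB, the cytochrome b gene of complex III, read between 15.53 and 15.64 on all 6 arrays, near the top of the signal range, where the highest gene mean was 15.66. Whether a reading that close to the top was compressed was not tested. COX2, a catalytic subunit gene of complex IV, differed by -0.02 and ATP6, of complex V, by -0.004. ND4, ND1, COX2 and ATP6 had means of 15.23, 14.75, 14.36 and 14.32, all above the brightest of the 82 members (13.97). Whether the readings of these bright genes were also compressed was not tested. The dimmer genes ND4L, ND6 and ND5, with means of 12.21, 8.90 and 6.54, differed by -0.06, -0.17 and -0.33, with overlapping groups. The difference between nuclear and mitochondrial genes was not tested.

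Other genes that serve the pathway were counted from lists of known factors. Of 13 measured regulators of mitochondrial biogenesis 6 were higher, with a median of -0.0035. Myc, a growth regulator, had the smallest p (-0.61 ± 0.23 SE, adjusted p = 0.381), with overlapping groups, and Tfb1m, a mitochondrial rRNA methyltransferase, differed by 0.31. Tfam, which packages and transcribes mitochondrial DNA, was lower without overlap (-0.27 ± 0.14 SE, adjusted p = 0.544). Among 26 assembly factors outside the prefixes 14 were higher, with a median of 0.02. Surf1, needed to assemble complex IV, read 8.40, 8.29 and 8.41 in deficient cells and 8.85, 8.83 and 8.73 in wild type cells, all lower in the former (-0.44 ± 0.12 SE, adjusted p = 0.194). Lyrm7, a chaperone of the iron-sulfur protein of complex III, was detected on every deficient and no wild type array, at least 1.19-fold higher (adjusted p = 0.0985), and entered the test through the deficient arrays alone. Of 9 genes of ATP export, uncoupling and oxidant defence 2 were higher, with a median of -0.06. They included Atpif1, the inhibitor of complex V, at 0.33 (adjusted p = 0.498) and the lipid peroxidase gene Gpx4 at -0.15. None of these lists had a member that passed in limma, and at an unadjusted p under 0.05 they had 1 member higher (Lyrm7) and 2 lower, against 5.68% and 5.66% of all genes.

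Cell cycle genes were followed beside the pathway on each array. All 16 measured cell cycle genes were higher, by a median of 0.39, with 7 at an unadjusted p under 0.05 and 0 called, where 49% of all genes were higher and 5.68% passed that p on the higher side (lowest adjusted p = 0.101, Stmn1 at 0.85 and Tk1 at 0.91). The median deviation of this list from its genes' means was -0.47, -0.10 and -0.18 on wild type arrays 1 to 3 and 0.09, 0.19 and 0.33 on deficient arrays 1 to 3. That of the 82 oxidative phosphorylation genes was -0.086, 0.0018 and -0.071, and 0.016, 0.042 and 0.092. Wild type array 1 was the lowest and deficient array 3 the highest for both, and in neither did the groups overlap. The part of cell division in the result was not tested.

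**Figure D4:**
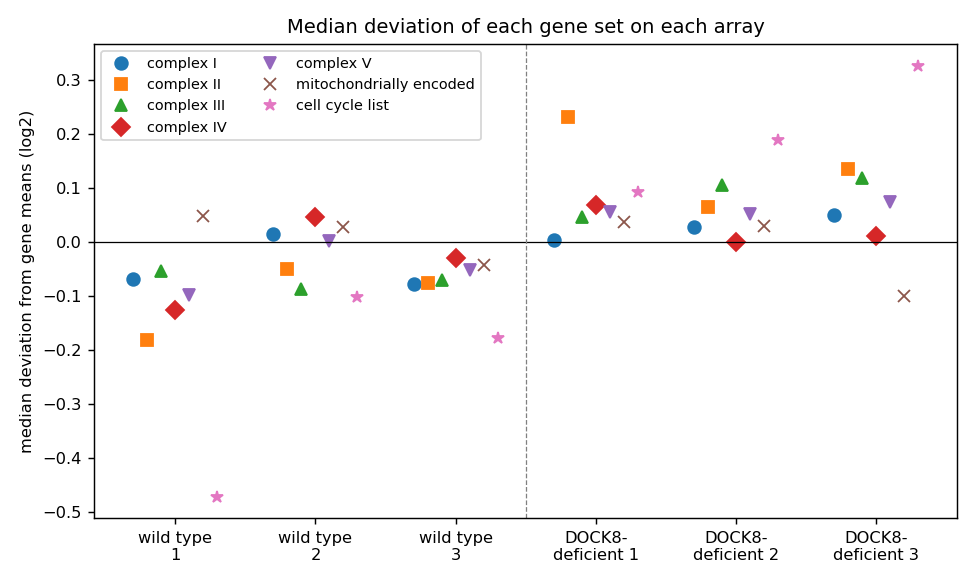
Median deviation from the gene means (log2, vertical axis) of complexes I to V, the mitochondrially encoded subunits and the cell cycle list on each of the 6 arrays. Complexes II, III and V sit below or near 0 on wild type arrays and above it on DOCK8-deficient ones, while complex I, complex IV and the mitochondrially encoded subunits overlap between groups.

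Markers of other cells the sort could hold were checked by the sum of their background-corrected linear signals. For double-positive thymocytes, of which 6 of 9 markers with a probe were measured, the sum ran from 1950 to 2280 in deficient and from 2320 to 2870 in wild type samples, with Rag2 and Cd8a undetected on every array. Within that list Dntt, a recombination enzyme gene, was detected on all wild type and no deficient arrays. It was at least 2.42-fold lower (adjusted p = 0.0276 in limma) and entered the test through the wild type arrays alone. Cd1d1 read lower without overlap (-0.77, adjusted p = 0.219), and Cd8b1, the T cell co-receptor chain gene, differed by -0.07. Cd8b1 and Cd1d1 were the brightest of the list (log2 means of 10.43 and 8.78), and the thymocyte sum follows them most. For myeloid and dendritic cells, with 4 of 8 measured, the sum ran from 493 to 593 and from 356 to 415, with Itgam and Cd14 undetected on every array. Of those measured, Fcgr3 (0.84, adjusted p = 0.143 in limma) and Mpeg1 (0.76, adjusted p = 0.252) read higher without overlap. Lyz2 read higher (0.70) and Csf1r lower (-0.16), both with overlapping groups. Sums for B cells (98.7 to 121 and 94.1 to 126, with 1 of 3 measured and Ms4a1 and Pax5 undetected), erythroid cells (157 to 413 and 133 to 244, with 1 of 3 measured and Alas2 and Klf1 undetected) and thymic stroma (333 to 396 and 314 to 370, with 3 of 7 measured and Epcam, Krt5, Foxn1 and Col1a1 undetected) overlapped between groups. NKT cell markers summed to between 26800 and 28300 in every sample. The brightest was Cd3e and the dimmest Zbtb16 (log2 means of 13.88 and 6.42), so that sum says little about dim markers. The thymocyte and myeloid sums moved with the groups, and their part in the result was not tested.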

How the data were processed

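Biotinylated cRNA was hybridised to Illumina mouse arrays, per the labels' protocols, with groups taken from sample titles. The deposited table gives each probe's intensity, linear and apparently not background-subtracted, with its p-value of detection in the next column, per the file headers. A second deposited table holds log2 values, and for its normalization the sources used here give no method.

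Intensities went through neqc of limma 3.58.1 (R 4.3.3, offset 16, background correction, quantile normalization, log2). Of 45281 probes, 34885 had exactly 1 annotated symbol and were used, 18 had several and 10378 none. Probes detected at p under 0.05 on 3 of 6 arrays were kept, and the probe of highest mean stood for its gene. The difference between groups was fitted by limma's lmFit and tested 2-sided after eBayes, with Benjamini-Hochberg adjustment over 9060 genes at a threshold of 0.05. Errors of differences are moderated standard errors. The fit was tested on simulated data only for planted changes larger than that of any member. A fold for a gene undetected in 1 group is a bound, set against the higher of its own value and the lowest detected value on each array. The number of arrays limits the precision.

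Members and lists were chosen with earlier results of these data known, and no list was tested as a set. The genes named were members that passed, up to 4 of lowest p and the brightest per complex, members whose groups did not overlap, a set of key subunits, and the 2 of lowest p per companion list; others were chosen after their values were seen. Alternatives changed the background correction, the scaling (array medians), the source (deposited log2 values), the filter (none, or detection p under 0.01 on all 6 arrays), the probe rule (mean), the prior (trended, robust), the design (replicate block) and the arrays (each left out).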

Additional observations from a re-analysis of the deposited data

How the results depend on the processing

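The count of members above 0 stayed between 56 and 68 of 82 under every alternative, and 0 members passed when any single replicate was left out. The groups' small size and the weak signals of dim probes limit what can be called. Members passing over all genes numbered 2 without background correction, 1 in the deposited log2 values, 1 under the stricter filter and 2 with a trended robust prior, against 0 in the reported fit. These were Uqcrq in all 4 settings and Cox7a2l in the first and the last.

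Members higher at an unadjusted p under 0.05 numbered 12 without background correction, 1 with median scaling, 8 in the deposited table, 9 with a trended robust prior and from 2 to 7 with a replicate left out, against 5. On the lower side there were 3, 0, 1, 2 and 1, against 1. The share of all genes at that unadjusted p was not counted in these settings. Genes called higher and lower over the array numbered 66 and 58 without background correction, 23 and 39 with median scaling, 61 and 65 in the deposited table, 43 and 37 with the stricter filter and 86 and 79 with a trended robust prior, against 19 and 14. Leaving out a replicate gave from 2 to 10 higher and from 0 to 5 lower.

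With median scaling the median difference was 0.056 over all members, 0.074 for complex I, 0.13 for complex II, 0.096 for complex III, 0.0045 for complex IV and 0.092 for complex V. With the mean of probes that of complex V was 0.091. Leaving out a replicate gave medians from 0.087 to 0.14 over all members, from 0.085 to 0.16 for complex I, 0.13 to 0.29 for complex II, 0.10 to 0.19 for complex III, -0.0055 to 0.097 for complex IV and 0.092 to 0.15 for complex V. With 1 replicate left out the adjusted p of Uqcrq ranged from 0.0968 to 0.258 and that of Cox7a2l from 0.137 to 0.539.

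Genes near 0 changed sign. With median scaling Atp5b read -4.4e-05 and Ndufaf4 -0.026, and in the deposited table Atp5c1 read 0.043, Cox4i1 0.029 and Cox6a1 0.026. With a replicate left out the ranges were -0.024 to 0.17 for Atp5b, -0.12 to 0.12 for Atp5c1, -0.16 to 0.099 for Cox4i1, -0.074 to 0.014 for Cox6a1, -0.035 to 0.087 for Ndufa4, -0.0094 to 0.23 for Ndufab1, -0.020 to 0.087 for Ndufaf4, -0.18 to 0.087 for Sdhc and -0.00075 to 0.19 for Uqcrc1. The cause of these differences between settings was not tested.

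The titles number the replicates within each group and name no pairs. The deviations of same-numbered samples from their group means correlated at 0.0437, -0.148 and -0.271 across genes. For differently numbered samples the correlations ran from -0.207 to 0.362. Deviations are tied together within a group of 3, so these correlations cannot decide if same-numbered samples were paired. With the replicate number as a block, 0 genes were called higher and 0 lower in limma, 0 members passed and 64 members were above 0.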
